A study of Mus musculus with 18 samples.

Results

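The 2 doses of monocrotaline given in this study, 330 and 270 mg/kg, were set against each other in mouse liver mRNA. Members are all mRNA arrays that the labels place in the 2 dose groups: the 3 mRNA arrays of the 330 mg/kg group (MCT 330) and the 3 of the 270 mg/kg group (MCT 270), 6 of the 18 arrays of the series. The animals were male C57BL/6 mice of 6 weeks, in groups of 8. Food was withheld for 12 h before a single gavage of monocrotaline, and liver was taken 48 h afterwards. The 3 mRNA arrays of the saline group, handled and fasted alike, serve as background for each value and enter the fit. Each array carries RNA of whole liver, so lower RNA of a cell type cannot be told apart from fewer of its cells.

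Monocrotaline is a pyrrolizidine alkaloid made by Crotalaria plants. It is harmless until liver cytochrome P450 enzymes oxidise it to a reactive pyrrole that binds protein, DNA and glutathione. Sinusoidal endothelial cells, which line the small vessels between hepatocytes, are known as an early target, and loss of that lining is followed by congestion and death of hepatocytes around the central vein. The oxidising enzymes lie in the same pericentral hepatocytes. The comparison therefore bears on the RNA of both cell types, on stress and clotting genes, and on blood cells that enter an injured liver.

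The 6 arrays held fewer separable samples than their labels give. The difference between 2 arrays was set against how far spots of the same probe differ within an array, so that a ratio up to 1 means no more difference than within an array. That ratio was 0.491 for MCT 270 replicates 2 and 3, and 0.650 to 0.925 among the 3 MCT 330 arrays. It was 2.81 and 2.90 between MCT 270 replicate 1 and the other two, and 7.54 to 9.70 between the doses. Arrays at or under 1 were averaged and counted as 1 sample, which left 2 MCT 270 samples, 1 MCT 330 sample and 2 controls. Below, the first MCT 270 sample is replicate 1 and the second is replicates 2 and 3. Replicate 1 of MCT 330 was the least like its group, since in 1 class of spot brightness its ratio reached 1.04, and 421 of its values lay over 1 log2 unit from both others and were left out. No scan of the slides held both doses, so scan and dose cannot be told apart. The control arrays were read in the same scans as the MCT 270 arrays. Where MCT 270 lies near saline and MCT 330 does not, scan and dose cannot be told apart either. Spots well above background made up 73.4% to 80.9% of probes on these 6 arrays.

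**Figure D1:**
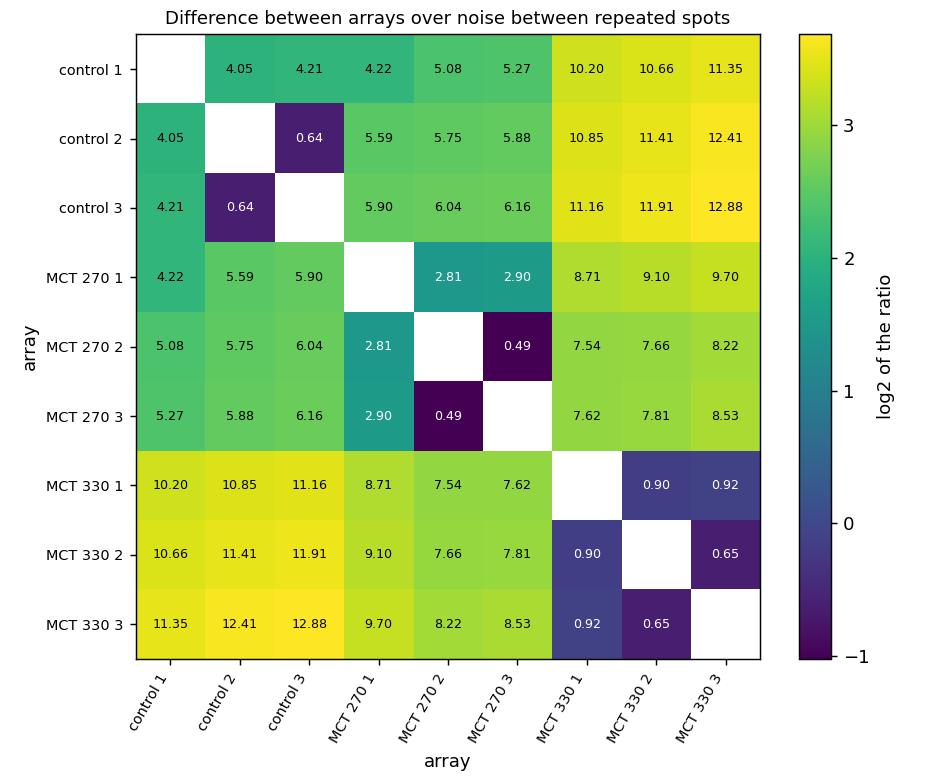
Each cell gives the difference between 2 of the 9 mRNA arrays (robust SD of log2 differences) as a ratio to that between spots of the same probe, with colour on a log2 scale. The dark cells at or under 1 are control 2 with 3, MCT 270 2 with 3 and the 3 MCT 330 arrays, while pairs across the doses lie at 7.54 to 9.70.

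A gene is called higher or lower at 330 mg/kg when its Benjamini-Hochberg adjusted p from limma is under 0.05. Levels are log2 signal relative to the 75th percentile of the array, and differences are 330 minus 270 mg/kg on the log2 scale with the standard error (SE) of the fit. Because MCT 330 is 1 sample, the SE takes its spread from the control and MCT 270 samples. Levels of different genes come from different probes and cannot be compared. Of 24798 genes, 5392 were called, which is 21.7%. Names on the array without a RefSeq match count as genes here, whereas all members of the lists below are named genes. The called genes were 1242 higher (5.01%) and 4150 lower (16.7%), with adjusted p from 0.0212 upwards, and 9644 genes had an unadjusted p under 0.05. Scaling sets this split: 23.0% of called genes were higher here, 38.9% when arrays were quantile normalized, and 49.0% when normexp preceded that step (called normexp below). The median of all differences was -0.23, against -0.04 and -0.02 under those 2 alternatives, so list medians below are read against it. Counts of a list are likewise read against 5.01% and 16.7%, and a share near these is no result about the list. Differences of 8-fold or more were called in 109 genes higher and 43 lower. The gap between the 2 MCT 270 samples enters the SE, so every called gene differs by more than that gap by construction. Of all genes, 76.4% differed by more between the doses than between the 2 MCT 270 samples. Without MCT 270 replicate 1 each dose is 1 sample, and no gene was called (6196 had an unadjusted p under 0.05).

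Among genes well above background on all 6 arrays, the highest at 330 mg/kg included Sprr1a, Atf3, S100a9, S100a8, Retnlg, Bcl2l14, Fos, Ier3, Hcar2, Tnfrsf12a and Jun. Sprr1a encodes a small proline-rich protein of the cornified envelope that damaged epithelia also make. Its level was -1.60 and -1.31 in the 2 MCT 270 samples and 4.79 to 4.95 on the MCT 330 arrays, a difference of 6.32 ± 0.22 or 79.7-fold (adjusted p = 0.0212). The control mean was -1.58, so the lower dose lay at the level of saline. Bcl2l14, a member of the Bcl2 family, went from -4.23 and -3.97 to between 1.07 and 1.29, a 39.1-fold difference. Hcar2, a receptor for hydroxybutyrate and niacin on fat cells and myeloid cells, rose by 4.71 ± 1.13 (adjusted p = 0.0476), with control samples far apart at -5.87 and -3.08.

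The 12 lowest were Hsd3b5, Cyp7a1, Lrat, Slco1a1, Serpina6, Sult2a7, Nox4, Upp2, Sult2a8, Nrep, Nxpe2 and Cyp8b1. Hsd3b5, a steroid-reducing enzyme found in male liver, had levels of 1.63 and 1.28 in the MCT 270 samples and -4.57 to -4.34 on the MCT 330 arrays. That is a difference of -5.88 ± 1.20, or 58.8-fold (adjusted p = 0.0346). Its control samples lay far apart, at 5.10 and 2.15. Serpina6, the plasma carrier of corticosteroids, was at 4.91 and 4.92 at 270 mg/kg and at 1.06 to 1.08 at 330 mg/kg, 14.4-fold lower. Nox4, a NADPH oxidase that makes hydrogen peroxide, was at 1.41 in controls, at -1.45 and -2.23 in the MCT 270 samples and at -5.53 to -5.40 on the MCT 330 arrays. In all of these genes the 3 arrays of one dose lay beyond the 3 of the other, which is part of how they were picked.

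**Figure D2:**
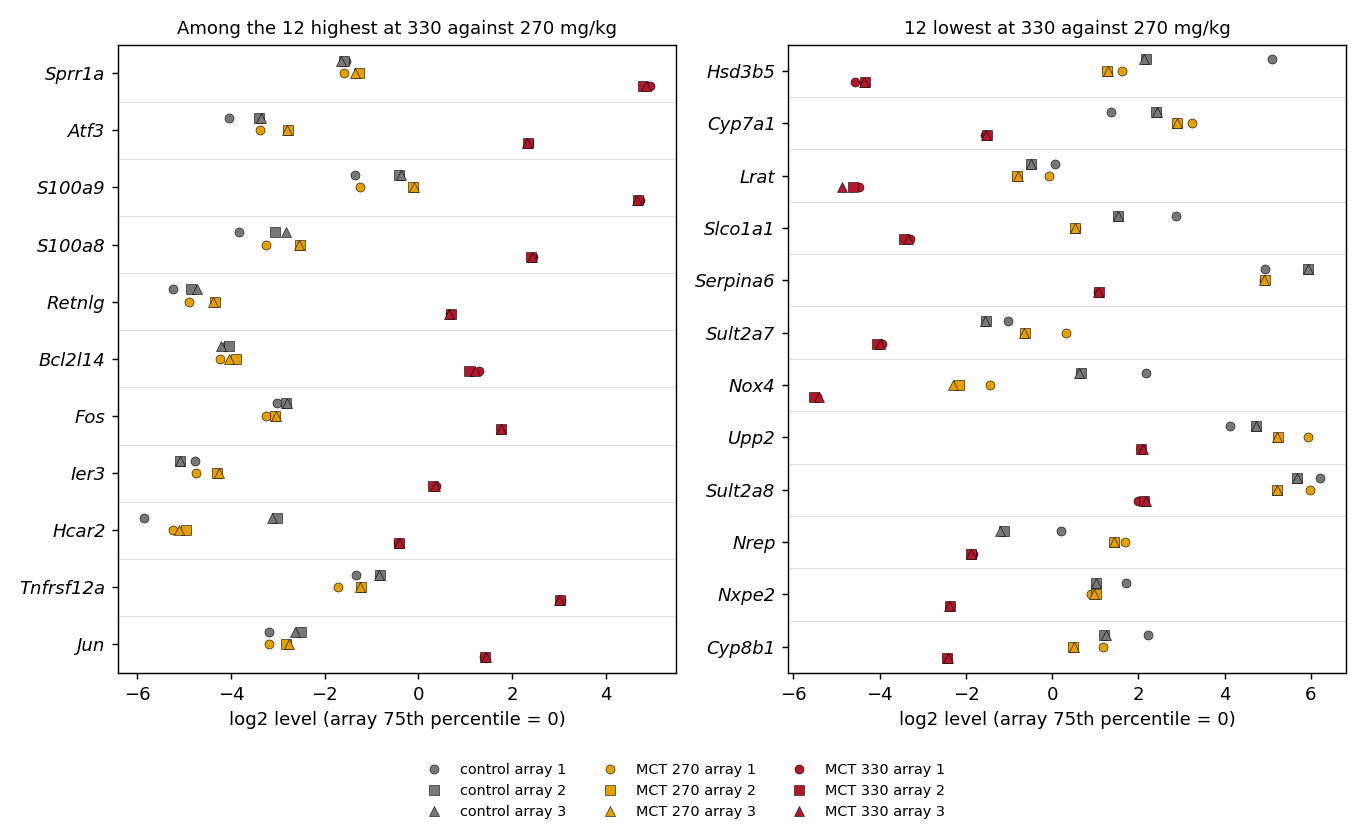
Log2 levels of called genes among the 12 highest (left) and of the 12 lowest (right) on each of the 9 mRNA arrays, 0 being the 75th percentile of the array; grey is saline, orange 270 mg/kg and red 330 mg/kg, and the symbol gives the replicate. The 3 red points of a gene nearly coincide, and among the genes drawn S100a9 has the widest gap between its MCT 270 samples, 1.15 log2 units.

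Some genes had no array of 1 dose well above background, and their difference is then given as a lower bound against the dimmest measurable signal. Areg, the EGF receptor ligand amphiregulin, was at least 28.9-fold higher at 330 mg/kg. For Cstdc4 and Stfa1, cystatin-type protease inhibitors of neutrophils, the bounds were at least 21.8-fold and at least 12.9-fold, and for the ubiquitin ligase gene Rnf225 at least 9.82-fold. In the other direction Nexmif was at least 6.21-fold lower, the chemokine Cxcl15 at least 5.43-fold, Sprr2i at least 4.93-fold and Sval2 at least 4.59-fold. Nexmif was not well above background on any control array either, with means of -7.40 in controls and -7.42 at 330 mg/kg. Its MCT 270 samples were at -2.83 and -4.37. Sprr2i was well above background on 1 of 3 control arrays, and Cxcl15 and Sval2 on all 3. Elovl3, which elongates fatty acids in male liver, had a bound of at least 20.3-fold lower but was not called. Its control samples lay far apart (3.76 and -0.13), and its MCT 270 samples less so (-1.33 and -2.45).

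Immediate early genes are switched on within minutes of stress, growth factors or cytokines, without new protein, and several encode the Jun, Fos and Atf subunits of the AP-1 transcription factor. Of 36 tested, 23 were called higher and none lower, with a median difference of 1.66 against -0.23 over all genes. Atf3, a stress-induced factor, was at -3.38 and -2.79 at 270 mg/kg and at 2.31 to 2.36 at 330 mg/kg, a rise of 5.42 ± 0.40 (42.8-fold, adjusted p = 0.0212). Fos was at -3.25 and -3.05 in the MCT 270 samples, beside a control mean of -2.92, and at 1.75 to 1.76 on the MCT 330 arrays. Jun rose by 4.41 ± 0.35, Ier3 by 4.86 ± 0.29 and Ccn1, a secreted matrix protein, by 4.40 ± 0.30. In each of these genes both MCT 270 samples lay within 1 log2 unit of the control mean.

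Further members rose by less. The zinc finger genes Egr1 and Klf6 rose by 4.30 ± 0.24 and 3.18 ± 0.34, and the small Maf gene Maff by 3.03 ± 0.21. Members of the same families were not called: Fosb differed by -0.39 ± 0.19, and Egr3, Arc, Nr4a2 and Klf10 were not called either. Myc, with MCT 270 levels of 0.05 and 1.95 and MCT 330 levels of 3.39 to 3.40, had a difference of 2.39 ± 0.84 that did not pass (adjusted p = 0.107).

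Chemokines draw leukocytes along a gradient. Those of the Cxcl1, Cxcl2 and Cxcl3 cluster bind Cxcr2 on neutrophils, and Ccl2 and Ccl7 bind Ccr2 on monocytes. Of 27 chemokines 10 were called higher, against 5.01% of all genes, and 1 lower, with a median of 1.18. Cxcl1 was at -2.18 and -0.84 at 270 mg/kg and at 2.18 to 2.22 at 330 mg/kg, a rise of 3.71 ± 0.61 (adjusted p = 0.0247). Its control mean was -3.20. Cxcl2 was not well above background in control or MCT 270 livers and was at least 14.7-fold higher at 330 mg/kg, and Cxcl3 at least 4.73-fold. Ccl2 rose by 3.57 ± 0.59 and Ccl7 by 3.54 ± 0.70, from MCT 270 samples that already lay above saline, at -1.75 and -0.44 for Ccl2 beside a control mean of -2.90. Cxcl10, which binds Cxcr3 on T cells, rose by 3.14 ± 0.49. The gene called lower was Cxcl12 at -1.06, a chemokine that liver stromal cells make. Cxcl15, given above as lower, was not on the chemokine list. In the second MCT 270 sample Cxcl1, Ccl2 and Ccl7 all lay above the first, by 1.31 to 1.40 log2 units.

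The start sites of the 3 neutrophil chemokine genes are shown because these genes were all called higher and share a stretch of letters. They lie in 1 cluster on chromosome 5, and in RefSeq (build GRCm38.p6) the 150 bases before each start are as follows, read 5′ to 3′ on the plus strand. Capitals mark matches to the NF-kB consensus, which overlap each other on both strands because the run is a palindrome except at its centre. They cover 11 bases that start 71, 97 and 73 bases before the start of Cxcl1, Cxcl2 and Cxcl3.
Cxcl1, chr5:90891095-90891244: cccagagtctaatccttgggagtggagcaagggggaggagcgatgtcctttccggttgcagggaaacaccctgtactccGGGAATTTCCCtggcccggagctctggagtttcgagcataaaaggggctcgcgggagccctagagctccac
Cxcl2, chr5:90903749-90903898: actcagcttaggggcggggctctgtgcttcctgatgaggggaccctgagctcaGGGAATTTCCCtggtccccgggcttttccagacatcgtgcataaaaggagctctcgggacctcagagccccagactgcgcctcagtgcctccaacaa
Cxcl3, chr5:90785951-90786100: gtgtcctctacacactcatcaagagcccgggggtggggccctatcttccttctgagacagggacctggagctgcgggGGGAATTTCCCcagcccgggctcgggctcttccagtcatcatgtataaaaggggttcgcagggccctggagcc

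Across the promoter windows of 300 bases that RefSeq gives, from 250 before to 50 from the start on, 13466 of the 24798 tested genes had a sequence. The NF-kB consensus was present in 5.93% of these, in 8.52% of genes called higher and in 5.59% of genes called lower. Among the 19 chemokines with a sequence 6 held it, and among 20 genes on a list of NF-kB feedback regulators and targets 8 did, a list that was assembled from known targets. These are letter matches, not measured binding sites, and all motifs were searched on both strands. The AP-1 heptamer TGACTCA was present in 5.13% of all, 6.58% of genes called higher and 5.69% of genes called lower, and the cyclic AMP element TGACGTCA in 2.93%, 3.87% and 1.59%. E-box letters CACGTG had shares of 10.2%, 11.6% and 7.23% in the same order, STAT letters TTCNNNGAA 8.84%, 11.1% and 9.28%, and TATAAA 12.3%, 14.5% and 18.6%.

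Further starts are shown for some of the genes called higher whose windows hold AP-1 or cyclic AMP element letters. AP-1 letters also lie in windows of genes called lower, among them Hpd, Col6a1, Nr1i3, Rcan2 and Sprr2i. On the immediate early list 1 of 27 windows held TGACTCA (3.70%), against 5.13% of all genes. The 150 bases before the start of Sprr1a (minus strand) hold AP-1 letters at 2 places, in capitals, those of Plaur at 1 place, and those of Areg hold a cyclic AMP element, from 61 to 54 bases before the start.
Sprr1a, chr3:92485882-92486031: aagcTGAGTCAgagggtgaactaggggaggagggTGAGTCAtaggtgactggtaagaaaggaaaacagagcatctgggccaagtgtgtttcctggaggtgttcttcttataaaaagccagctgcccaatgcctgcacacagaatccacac
Plaur, chr7:24462333-24462482: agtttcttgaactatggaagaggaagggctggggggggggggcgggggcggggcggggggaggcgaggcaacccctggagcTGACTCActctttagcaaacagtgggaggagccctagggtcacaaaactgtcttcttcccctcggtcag
Areg, chr5:91139449-91139598: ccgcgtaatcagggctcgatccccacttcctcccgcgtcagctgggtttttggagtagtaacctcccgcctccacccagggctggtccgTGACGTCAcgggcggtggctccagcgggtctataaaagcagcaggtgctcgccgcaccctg

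Of the 27 genes on the NF-kB list, 11 were called higher and 1 lower. Tnfaip3, an enzyme that shuts NF-kB signalling off, rose by 2.84 ± 0.24 (7.18-fold), from -1.04 and -0.67 to between 1.96 and 2.01. Icam1, which holds leukocytes on endothelium, rose by 2.67 ± 0.38, Irak3 by 2.20 ± 0.20 and the inducible nitric oxide synthase Nos2 by 2.19 ± 0.20. Ptgs2, the inducible cyclooxygenase, was called higher but was not well above background at 270 mg/kg. The gene called lower was Selp. Cytokines and their receptors gave 10 higher and 3 lower of 33. Il1r2, the decoy receptor of interleukin 1, was at -6.09 and -6.13 at 270 mg/kg, where 1 of 3 arrays was well above background, and at -1.04 to -0.97 at 330 mg/kg. Il1b rose by 2.92 ± 0.28 and the alarmin Il33 by 2.76 ± 0.29, and Tnfrsf12a, the receptor of the ligand TWEAK, was 22.6-fold higher. Il6 was not called, with levels of -1.28 and -0.78 against -1.37 to -1.17. The genes called lower were Il18, Lifr and Il1rap, the last 2 being receptor chains for cytokines that drive acute phase genes in hepatocytes.

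Neutrophils are short-lived cells that leave the marrow with their granules made. The genes of the first granules (Mpo, Elane, Ctsg, Prtn3) are read in marrow precursors, and S100a8, S100a9, Retnlg and Mmp8 in late or circulating cells. Of 30 neutrophil genes tested 15 were called higher and 2 lower. S100a8 was at -3.26 and -2.54 at 270 mg/kg and at 2.41 to 2.44 at 330 mg/kg, a rise of 5.32 ± 0.49 (40.0-fold, adjusted p = 0.0212). S100a9 rose by 5.36 ± 0.63, Retnlg by 5.30 ± 0.34 and Mmp8, well above background on 2 of 3 MCT 270 arrays, by 3.42 ± 0.38. The 2 called lower were Ctsg, at -1.53 ± 0.26, and Mpo, which no MCT 330 array held well above background, while Elane at -0.58 ± 0.26 was not called. With quantile normalization 1 neutrophil gene was called lower, and with normexp none. Summed over 5 of 6 defining neutrophil markers on the array, the linear level was 8.17 to 9.14 on the MCT 270 arrays, 39.9 to 41.1 on the MCT 330 arrays and 8.62 to 11.6 in controls. S100a8, S100a9 and Retnlg, already named among the highest genes, are 3 of these markers. The rise of the sum was theirs, and the rest of the sum was alike at both doses.

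The sums of other blood cell markers did not all go the same way. Monocyte markers summed to 3.74 to 4.76 at 270 mg/kg and 10.1 to 10.8 at 330 mg/kg, beside 2.14 to 2.30 in controls. Of 31 genes of monocytes and recruited macrophages 9 were called higher (6 with quantile normalization) and none lower. Clec4d, a lectin receptor, rose by 4.25 ± 0.31, Cd14, the co-receptor for endotoxin, by 3.93 ± 0.21 and Gpnmb, a lysosomal protein of lipid-laden macrophages, by 3.00 ± 0.48, the last well above background on 1 of 3 MCT 270 arrays. Lyz2 and Ccr2 were not called, at 1.30 ± 0.74 and 1.15 ± 0.48. Haemoglobin and erythroid markers summed to 24.8 to 49.0 and 136 to 149 at the 2 doses. The control arrays spread from 13.9 to 39.6, and Hba-a1 and Hbb-b2 did not pass the test (adjusted p = 0.176 and 0.180). The platelet chemokine Pf4 rose by 1.63 ± 0.34, and platelet markers summed to 1.12 to 1.55 and 3.29 to 3.48. T cell markers summed to 1.67 to 1.85 at 270 mg/kg and to less at 330 mg/kg, 1.14 to 1.24, with controls at 2.01 to 2.12. Most of that sum was the single gene Cd3e, at 0.53 and 0.40 in the MCT 270 samples and -0.50 to -0.33 on the MCT 330 arrays. The rest of the sum did not fall. B cell markers summed to 0.517 to 0.554 and 0.921 to 0.968. Of 26 T, B and NK cell genes 2 were called higher, Il7r and Cd79b, and 2 lower, Cd3e and Cd8b1, but 5 were higher and 1 lower with quantile normalization, and 6 and 1 with normexp. The part of these cells in the other lists was not tested.

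Sinusoidal endothelial cells are fenestrated and take up waste through the receptors Stab1, Stab2, Lyve1 and Mrc1. Of 23 of their genes 9 were called lower, against 16.7% of all genes, and none higher, with a median of -0.63. Ehd3, a trafficking protein of this endothelium, was at 1.58 and 1.04 at 270 mg/kg and at -1.28 to -1.20 at 330 mg/kg, a fall of 2.55 ± 0.30 on the log2 scale (5.87-fold). Its control mean was 2.53. The lectin receptor Clec4g was at 2.12 and 1.73, then at -0.26 to -0.14, 4.42-fold lower, and Plxnc1 and Mrc1 were 3.23-fold and 2.82-fold lower. Stab1, Stab2 and Lyve1 were not called. Stab2 was at 3.03 and 3.07 in controls, at 0.69 and 0.86 in the MCT 270 samples and at 0.95 to 0.99 on the MCT 330 arrays. At both doses Stab2 was below saline. The 6 defining markers summed to 25.1 to 27.0 in controls, 8.76 to 10.1 at 270 mg/kg and 6.84 to 7.05 at 330 mg/kg. General endothelial genes gave 6 lower and 1 higher of 29 (3 lower with quantile normalization), a share of 20.7% lower. Their 5 defining markers summed to 3.89 to 4.16 in controls, 4.03 to 4.41 at 270 mg/kg and 3.98 to 4.03 at 330 mg/kg. Ptprb and Ramp2 fell 2.43-fold and 2.37-fold, Thbd rose, and Cdh5 and Vwf were not called (0.47 ± 0.20 and 0.46 ± 0.21).

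Kupffer cells, the resident macrophages of the liver, gave 4 lower and 2 higher of 22 (3 and 1 with quantile normalization, 3 and 3 with normexp). The 18.2% lower is near the 16.7% of all genes. Their 5 defining markers summed to 19.1 to 22.1 in controls, 11.3 to 12.5 at 270 mg/kg and 7.59 to 7.72 at 330 mg/kg. Vsig4, a complement receptor that marks them, was 2.39-fold lower, with a control mean of 2.40 and MCT 330 arrays at -0.24 to -0.23. Clec4f fell by 1.22 ± 0.25 and Timd4 at -1.05 ± 0.28 missed the threshold (adjusted p = 0.0578). Those called higher were Arg2, at least 8.74-fold, and Id3, whose value on MCT 330 replicate 1 was -8.11 against 1.78 and 1.76 on the others. With that value kept Id3 turns to a lower level. Stellate cells store vitamin A. Of 25 of their genes 10 were called lower and none higher. Lrat, which makes the stored retinyl esters, was at -0.07 and -0.80 at 270 mg/kg, near its control mean of -0.21, and at -4.88 to -4.48 at 330 mg/kg, 18.7-fold lower. Pth1r, Colec10 and Colec11 were 4.62-fold, 3.70-fold and 2.77-fold lower, and Des and Dcn were not called. Stellate markers summed to 28.0 to 31.8, 17.8 to 20.2 and 12.4 to 13.9 in the same order of groups. Matrix genes of fibroblasts gave 3 higher (1 under quantile normalization), Timp1 and Col4a1 among them, and 2 lower (Postn and Col6a1) of 38, and 2 of 19 genes of bile duct cells, Sctr and Ehf, were called lower, a smaller share than the 16.7% of all genes. In 9 of the 19 the MCT 330 arrays lay above all MCT 270 arrays, in 8 below, and the 4 defining markers of these cells summed to 0.325 to 0.410 at 270 mg/kg and 0.599 to 0.664 at 330 mg/kg. Exocrine pancreas genes, which mark carried-over tissue, gave 4 lower of 13 and summed to 0.354 to 0.363 and 0.177 to 0.188, with Pnlip not above background.

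The tumour suppressor p53 is activated by DNA damage and switches on genes of cell cycle arrest, repair and apoptosis. Of 46 targets 20 were called higher and none lower, with a median of 1.03. Cdkn1a, the cyclin kinase inhibitor p21, was at 1.20 and 1.19 at 270 mg/kg and at 3.44 to 3.46 at 330 mg/kg (2.25 ± 0.51, adjusted p = 0.0418). Mdm2, which degrades p53, rose by 1.53 ± 0.21, the death receptor gene Eda2r (well above background on 1 of 3 MCT 270 arrays) by 3.04 ± 0.46 and Btg2 by 2.97 ± 0.32. Gdf15, a stress hormone that both p53 and the integrated stress response switch on, was at -1.07 and -0.73, then at 3.17 to 3.19, 16.9-fold higher. Ccng1 was already at 1.72 and 1.74 at 270 mg/kg, above controls at 0.03 and -0.27, and at 2.41 to 2.45 at 330 mg/kg it was not called (adjusted p = 0.0869). Of 34 Bcl2 family and apoptosis genes 8 rose, among them Tnfrsf10b by 2.46 ± 0.28 and Bcl2l11 by 1.78 ± 0.37, and 3 fell (none with quantile normalization), with Bmf 3.97-fold lower. DNA repair genes gave 1 higher (Polk) and 2 lower (Mgmt and Palb2) of 37. Of 44 cell cycle genes 3 were called higher, Cdkn1a, Cdc25a and Mcm2, and 2 lower, Cdk4 and Tk1. Tk1, thymidine kinase, fell from 3.18 and 3.16 to between 0.73 and 0.74.

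The integrated stress response lets Atf4 and Ddit3 act when translation is slowed by amino acid, haem or endoplasmic reticulum stress. Of 35 genes 9 were called higher and 1 lower. Nupr1, a stress-induced chromatin protein, rose by 3.56 ± 0.46, Ppp1r15a, which restores translation, by 2.63 ± 0.27, and Ddit3 by 1.96 ± 0.19. Trib3, Chac1, Asns and Sesn2, other targets of Atf4, were not called. Endoplasmic reticulum chaperones and Xbp1 targets had 2 higher of 32, Ero1a by 2.40 ± 0.18 and the kinase gene Eif2ak3 by 1.26 ± 0.21, and 1 lower, Edem1. Hspa5, the main chaperone, was at 6.04 and 6.43 and then at 6.43 to 6.52. Of 42 Nrf2 targets, which supply glutathione and detoxify electrophiles, 5 were called higher and 2 lower. The haem oxygenase Hmox1 rose by 2.85 ± 0.28, Srxn1 by 1.96 ± 0.28, and the cystine importer Slc7a11 by at least 3.54-fold, whereas catalase, Cat, fell 2.33-fold. Heat shock genes had none called of 22 by limma, 5 having an unadjusted p under 0.05 and 4 being called higher with normexp, with Bag3 closest at 1.04 ± 0.26 (adjusted p = 0.0512).

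Low oxygen stabilises Hif1a, which raises glucose uptake and glycolysis. Of 30 genes of hypoxia and glycolysis 16 were called higher and none lower, with a median of 1.20. Pfkfb3, which makes the main activator of glycolysis, was at 0.19 and -0.09, then at 3.31 to 3.33, a rise of 3.27 ± 0.22 (9.65-fold). Ankrd37, Slc2a3 and Adm rose by 3.26 ± 0.57, 3.22 ± 0.38 and 3.09 ± 0.19. The prolyl hydroxylase Egln3, which marks Hif1a for removal, rose by 2.29 ± 0.22. Among glycolytic enzymes, Hk2 rose by 2.12 ± 0.19 and Pkm by 2.20 ± 0.21, but Ldha at 0.12 ± 0.27 and Eno1 at 0.02 ± 0.20 were not called. On the list of glucose production and storage 6 of 35 were called higher and 7 lower (3 lower with quantile normalization). Those higher were Pfkfb3, Pkm, Hk2, Slc2a1, Aldoa and Hk1, enzymes and a transporter of glucose use, and those lower included the liver glycogen synthase Gys2 (3.20-fold) and the transporter Slc2a2. G6pc, which releases glucose from hepatocytes, had MCT 270 levels of 5.65 and 3.86 and MCT 330 levels of 2.21 to 2.28, and was not called (adjusted p = 0.0822).

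Clotting starts with tissue factor, F3, and fibrin is removed by plasmin. Of 22 regulators of these steps 5 were called higher and 2 lower (3 and 2 with quantile normalization). Among those higher were Thbs1, thrombospondin, by 3.82 ± 0.76, the urokinase receptor Plaur by 2.68 ± 0.30, the protein C receptor Procr by 2.19 ± 0.23, and Thbd by 1.11 ± 0.20. F3 itself was at 0.16 and -0.01 and at 0.32 to 0.39, and was not called. Thbs1 lay 1.83 log2 units apart in the 2 MCT 270 samples. The factors that hepatocytes secrete gave 6 lower and none higher of 30 (4 lower with quantile normalization), a share of 20% against 16.7% of all genes. Relative to all genes their median was -0.27, and -0.28 with quantile normalization and -0.36 with normexp. In 25 of the 30 all MCT 330 arrays lay below all MCT 270 arrays, against 51.2% of all genes. Klkb1, prekallikrein, was 2.81-fold lower, F13b 2.32-fold, F9 2.25-fold and F5 2.06-fold. None of 29 complement genes was called by limma, 7 having an unadjusted p under 0.05 (1 higher and 1 lower were called with normexp). The closest were C8b at -0.89 ± 0.24 (adjusted p = 0.0592) and C8g at -0.79 ± 0.23.

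Acute phase proteins are made by hepatocytes under interleukin 6 and interleukin 1. Of 36 tested 8 were called higher and none lower. Lcn2, a siderophore-binding protein made by hepatocytes and neutrophils alike, was at 2.36 in controls, at 3.37 and 5.17 in the MCT 270 samples and at 7.51 to 7.71 on the MCT 330 arrays (3.35 ± 0.77, adjusted p = 0.0432). Orm3 rose by 2.19 ± 0.28 and Steap4 by 2.07 ± 0.34. The serum amyloid gene Saa1 was at 3.36 and 6.01 at 270 mg/kg and at 7.15 to 7.28 at 330 mg/kg, and with that gap of 2.65 between its MCT 270 samples it was not called (adjusted p = 0.172). Plasma carriers gave 3 lower of 34, Serpina6, Igfals and Pon1. Albumin, Alb, was not called, at -0.17 ± 0.22, and the 5 defining hepatocyte markers summed to 1017 to 1301 at 270 mg/kg and 919 to 1006 at 330 mg/kg.

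Epithelial cells under injury change their keratins, annexins and actin-binding proteins. Of 37 such genes 14 were called higher and none lower, with a median of 0.93. Krt8 and Krt18, the keratin pair of hepatocytes, rose by 2.84 ± 0.50 and 2.11 ± 0.35. Krt8 was at 1.71 in controls, at 2.07 and 3.20 in the MCT 270 samples and at 5.46 to 5.51 on the MCT 330 arrays. The tubulin gene Tubb6 rose by 3.00 ± 0.49. Of 29 genes of EGF receptor signalling and regeneration 7 were called higher and 1, the receptor Met, lower. Beside Areg, these included Ccn1, Hbegf, an EGF receptor ligand, by 2.28 ± 0.26, and Ankrd1, a target of Yap, by 2.62 ± 0.62 (adjusted p = 0.0468), with 2 of 3 MCT 270 arrays well above background.

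**Figure D3:**
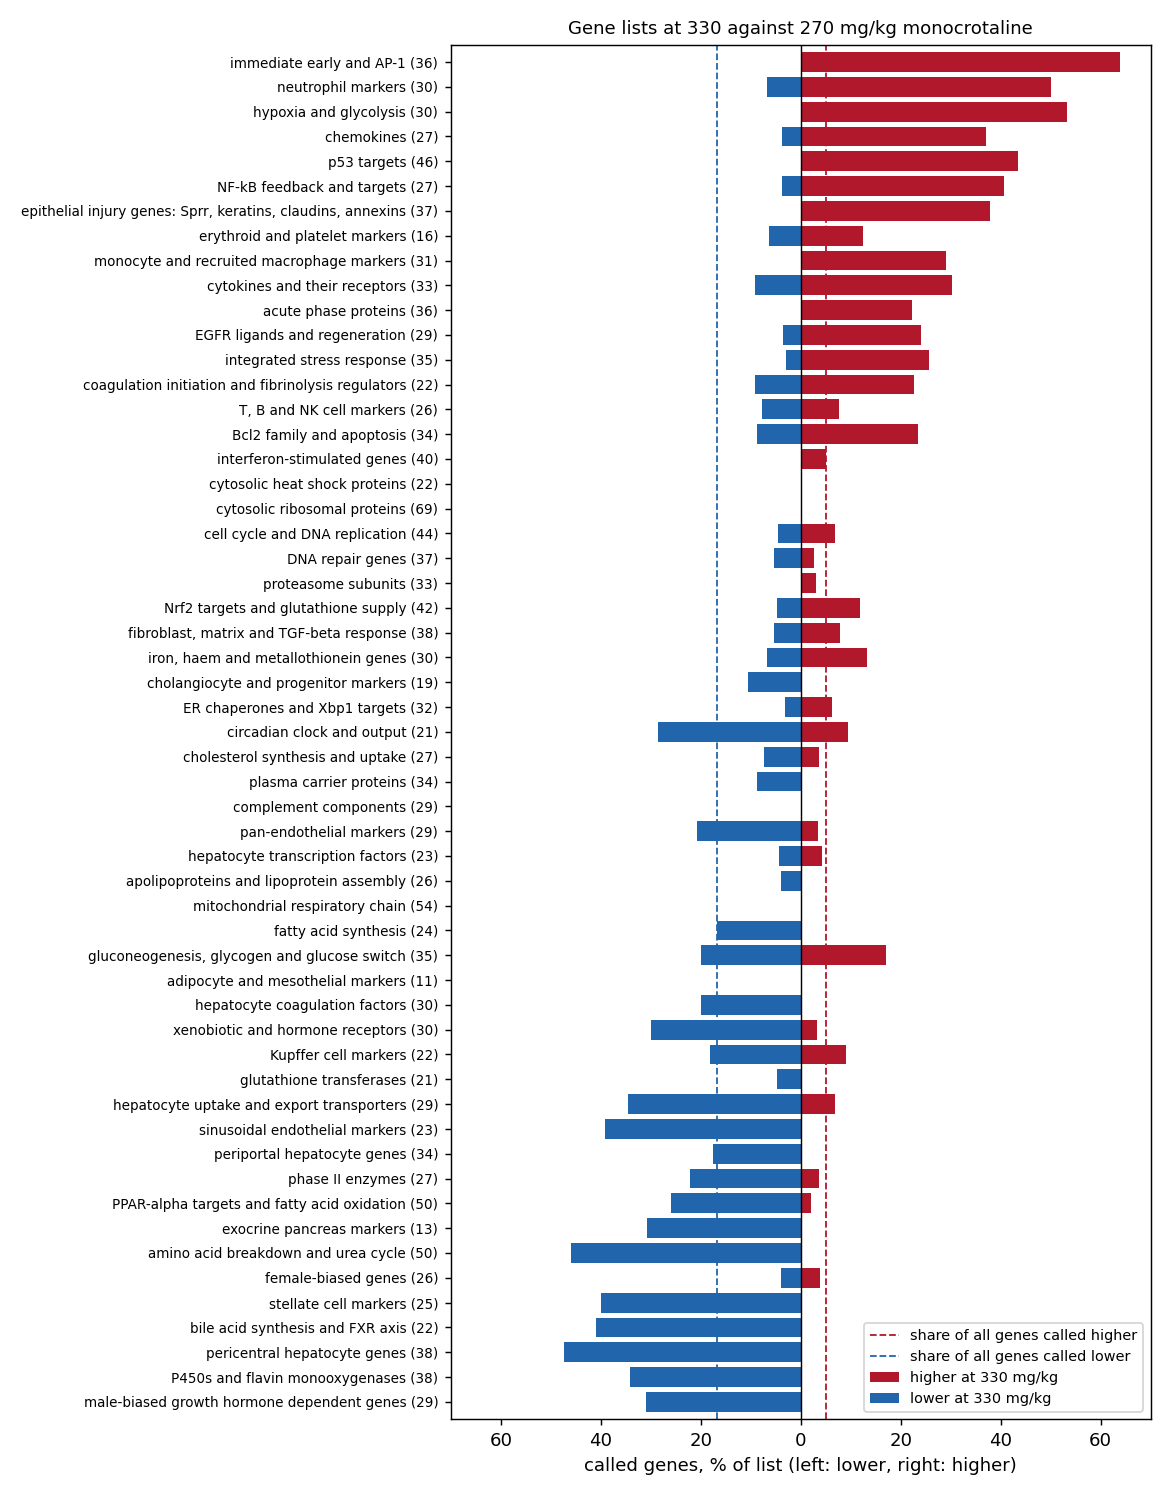
Share of each of 55 gene lists called higher (red, to the right) or lower (blue, to the left) at 330 against 270 mg/kg, sorted by the median difference, with the number tested in brackets; the dashed lines give the share among all 24798 genes, 5.01% higher and 16.7% lower. Immediate early genes lead with 23 of 36 called higher, and pericentral hepatocyte genes have 18 of 38 called lower.

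Hepatocytes make bile acids from cholesterol through Cyp7a1, the rate-limiting enzyme, and Cyp8b1, which sets the share of cholic acid. Of 22 genes of this pathway and its nuclear receptor 9 were called lower and none higher (6 with quantile normalization). Cyp7a1 was at 1.36 and 2.43 in controls, at 3.24 and 2.90 in the MCT 270 samples and at -1.56 to -1.52 on the MCT 330 arrays, a fall of 4.61 ± 0.48 on the log2 scale (24.4-fold, adjusted p = 0.0212). Cyp8b1 was at 1.17 and 0.50, then at -2.45 to -2.41, 9.62-fold lower. Akr1d1, which reduces the sterol ring, and Slc27a2, a coenzyme A ligase, were 3.12-fold and 3.29-fold lower. Cyp7b1 and Cyp27a1 of the other pathway were not called, and neither was Nr0b2, the repressor of Cyp7a1, at -0.40 and -1.42 against -1.66 to -1.55. Of 29 hepatocyte transporters 10 were called lower and 2 higher. Slco1a1, an organic anion importer, was 14.9-fold lower and the sterol exporter Abcg8 4.37-fold lower. The exporters Abcb1b and Abcc1 rose, Abcb1b by 1.64 ± 0.33. Slc10a1, the main bile acid importer, was at 6.50 and 6.39 and then at 6.44 to 6.55.

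Cytochrome P450 enzymes include those that activate monocrotaline. Of 38 P450 and flavin monooxygenase genes 13 were called lower and none higher, with a median of -1.17. Cyp2c38 was 4.94-fold lower, Cyp1a2 4.24-fold, Cyp2e1 3.73-fold and Cyp2c39 3.46-fold. Cyp2e1 was at 8.33 and 7.61 at 270 mg/kg, beside a control mean of 8.39, and at 6.02 to 6.11 at 330 mg/kg. Cyp3a11, of the family known to oxidise monocrotaline, was not called, at 7.82 and 7.37 against 6.85 to 7.05. Phase II enzymes, which attach polar groups, gave 6 lower and 1 higher of 27. The methyltransferase Inmt was 7.05-fold lower and the sulfotransferase Sult1e1 rose by 1.80 ± 0.39, from a level in both MCT 270 samples that was under control. Glutathione transferases had 1 lower of 21, Gsta3. Receptors for drugs and hormones had 9 lower and 1 higher of 30 (4 lower with quantile normalization), with the growth hormone receptor Ghr 4.13-fold, Nr1i3, the receptor CAR, 3.56-fold and Ppara 2.92-fold lower. Hepatocyte transcription factors had Cebpd called higher and Rxra lower of 23.

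Genes are zoned along the lobule. Pericentral genes, around the central vein, had 18 lower and none higher of 38 (12 with quantile normalization), and periportal genes 6 lower and none higher of 34 (3 lower and 1 higher with quantile normalization, 10 and 3 with normexp). The periportal share of 17.6% is near the 16.7% of all genes, and the pericentral share is 47.4%. The difference between the 2 zones was not tested, and it depended on the scaling. Relative to all genes, the periportal and pericentral medians were -0.45 and -0.76, and -0.47 and -0.81 with quantile normalization. With normexp both were -0.49. Rgn, regucalcin, was 5.48-fold lower among pericentral genes, and Etnppl, a phospholyase, 5.84-fold among periportal ones. Glul, Axin2 and Sp5, which mark the cells next to the central vein, were not called. Male-biased genes that depend on growth hormone pulses had 9 lower and none higher of 29 (4 under quantile normalization and 4 under normexp), with a median of -1.37. Cyp4a12a, which makes vasoactive fatty acids, was at 4.62 in controls, at 2.72 and 2.56 in the MCT 270 samples and at -0.53 to -0.40 on the MCT 330 arrays. Keg1 was 5.86-fold lower. Female-biased genes had 1 higher, Sult1e1, and 1 lower, Acsm2, of 26, and no MCT 330 array held Acsm2 well above background. With quantile normalization neither was called. The median of the female-biased genes was -0.95, and in 19 of the 26 all MCT 330 arrays lay below all MCT 270 arrays. That held for 51.2% of all genes. Relative to all genes, the male-biased and female-biased medians were -1.14 and -0.72, and -0.58 and -0.43 with normexp. The difference between these 2 lists was not tested.

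**Figure D4:**
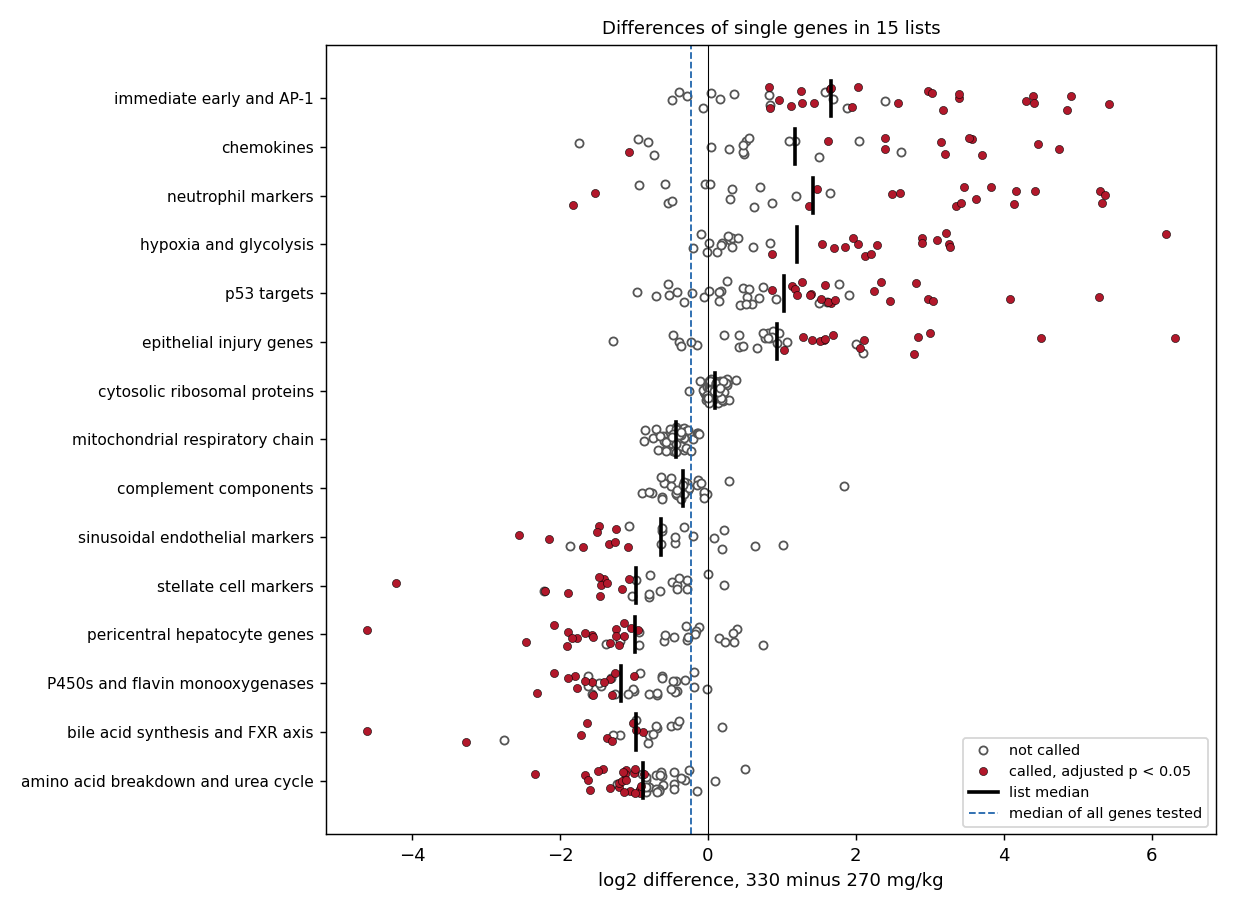
Difference of each tested gene (330 minus 270 mg/kg, log2) in 15 of the lists; red points are called, open points are not, black bars are list medians and the dashed line is the median of all genes, -0.23. Ribosomal proteins stay within -0.26 to 0.38, while immediate early genes reach from -0.49 to 5.42.

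Hepatocytes carry out the urea cycle and much of the breakdown of amino acids, though other cells express several genes of this list. Of 50 genes 23 were called lower and none higher, with a median of -0.88, and in 48 of the 50 all 3 MCT 330 arrays lay below all 3 MCT 270 arrays, against 51.2% of all genes. Afmid and Tdo2 of tryptophan breakdown were 5.03-fold and 3.08-fold lower, and Hpd of tyrosine breakdown 3.01-fold. In the urea cycle Otc was 2.80-fold and Cps1 1.88-fold lower. Fatty acid oxidation and other targets of the receptor PPAR-alpha gave 13 lower and 1 higher of 50 (22 lower with normexp). Acsl1, which activates fatty acids, was 3.75-fold lower and Ppara itself 2.92-fold. The gene called higher was Pdk4, a kinase that holds back glucose oxidation. It was at -1.66 and -1.74 at 270 mg/kg and at 2.10 to 2.18 at 330 mg/kg (14.3-fold), with controls at -0.12 and 1.32. Fatty acid synthesis gave 4 lower of 24, the 16.7% of all genes, among them Srebf1, its main transcription factor, 6.71-fold, and Thrsp 6.07-fold. Fasn and Scd1 were not called. In cholesterol synthesis and uptake 2 of 27 were lower, Fdft1 (2.15-fold) among them, and Sqle was 4.96-fold higher. Of 26 lipoprotein genes 1 was called, lower.

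Dbp, Tef and Hlf are transcription factors that carry the circadian clock into liver metabolism. Of 21 clock and output genes 6 were called lower and 2 higher. Dbp was at 2.72 and 2.10 in controls, at 4.72 and 4.92 in the MCT 270 samples and at 2.09 to 2.14 on the MCT 330 arrays. It thus stood 2.41 log2 units above control at the lower dose and 0.29 below at the higher, a fall between the doses of 2.71 ± 0.32 on the log2 scale (adjusted p = 0.0212). Ciart had the same order, at -0.85 in controls, at 1.32 and 0.63, and at -1.01 to -0.96. Tef and Hlf were 3.16-fold and 2.40-fold lower at 330 mg/kg, and Usp2, a clock output, 4.98-fold. Per3 was at least 3.15-fold lower. The repressors Nfil3 and Bhlhe40 rose 2.71-fold and 2.14-fold. The letters TTATGTAA, which Dbp, Tef, Hlf and Nfil3 are known to bind, were in 0.965% of all promoter windows, in 2 of 775 windows of genes called higher and in 30 of 1950 of genes called lower. Arntl, a core clock gene, was at 0.80 and 1.29 in controls, at -1.20 and -0.12 in the MCT 270 samples and at 0.87 to 0.92 at 330 mg/kg, and was not called (adjusted p = 0.0937). Hours of collection were not among the labels used here, and their part was not tested.

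Other named genes also left the order of the doses. Their levels are given side by side with no test, since the control and MCT 270 samples are shared. Cyp7a1, Upp2, Nrep, Srebf1, Sult2a7 and Tdo2 stood above both controls in both MCT 270 samples and were called lower at 330 mg/kg. Upp2, a uridine phosphorylase, was at 4.13 and 4.72 in controls, at 5.93 and 5.23 in the MCT 270 samples and at 2.06 to 2.11 on the MCT 330 arrays. Srebf1 was at 0.51 and 0.80, then at 1.77 and 2.05, then at -0.88 to -0.78. The reverse held for Pdk4, Il1b, Id1, Slc30a10, Cdc25a, Cd14 and Cebpd. Il1b was at -2.26 and -2.19 in controls, at -3.73 and -3.21 at 270 mg/kg and at -0.56 to -0.54 at 330 mg/kg. Id1, a target of bone morphogenetic proteins, was at 2.22 and 2.64, then at 1.52 and 1.05, then at 2.57 to 2.65.

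**Figure D5:**
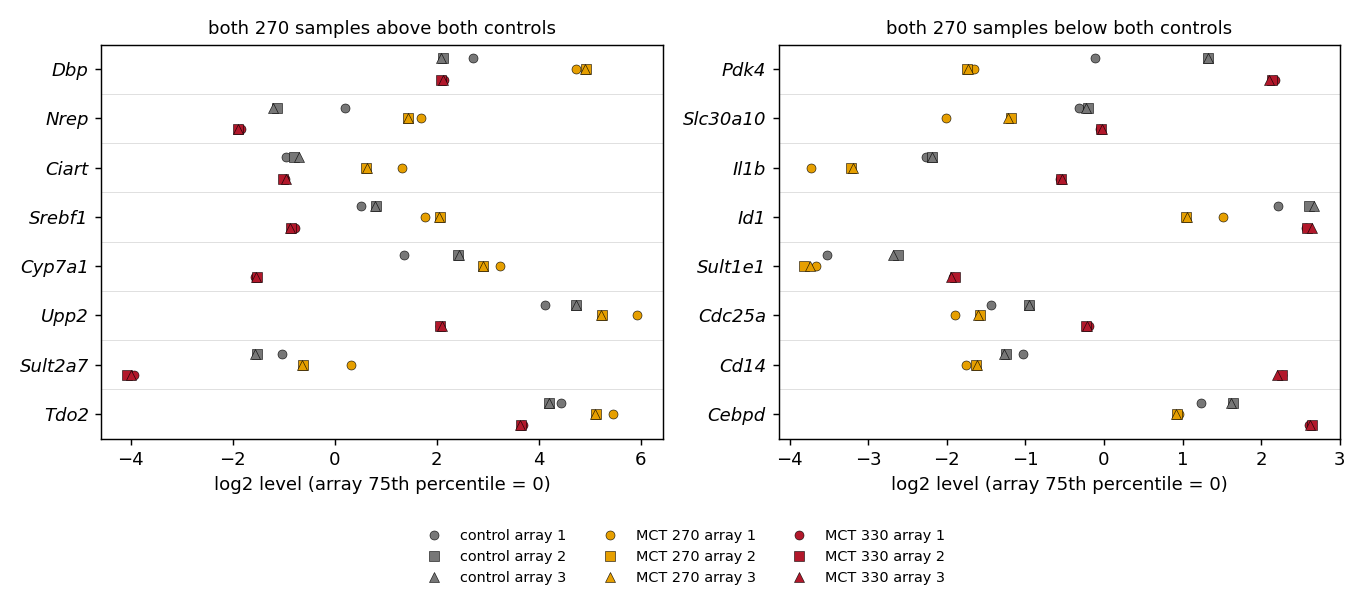
Log2 levels on the 9 arrays of 16 named genes whose MCT 270 samples both lay above (left) or below (right) both control samples and which were then called lower (left) or higher (right) at 330 mg/kg; grey is saline, orange 270 mg/kg, red 330 mg/kg, and the symbol gives the replicate. Dbp returns to the control level at 330 mg/kg, and Cyp7a1 falls from the highest to the lowest of the 3 groups.

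Several large gene groups had few or no called members. None of 69 cytosolic ribosomal protein genes was called by limma, and none had an unadjusted p under 0.05, with a median of 0.09 and a range from -0.26 to 0.38. None of 54 genes of the mitochondrial respiratory chain was called by limma either, though 7 had an unadjusted p under 0.05 and 4 were called lower with normexp. Their median was -0.44, and in 53 of the 54 all MCT 330 arrays lay below all MCT 270 arrays, which held for 51.2% of all genes. Sdhb, a subunit of complex II, came closest at -0.87 ± 0.23 (adjusted p = 0.0559). Proteasome subunits gave 1 higher of 33, Psmd8 by 1.08 ± 0.23. Interferon-stimulated genes had 2 higher of 40, Cxcl10 and Isg20, a share near that of all genes. Iron, haem and metallothionein genes gave 4 higher, Hmox1, Steap4, Slc30a10 and Id1, and 2 lower, Cpox and Tmprss6, of 30. Erythroid and platelet genes gave 2 higher, Pf4 and Gp5, and 1 lower, Klf1, of 16, and of 11 adipocyte and mesothelial genes none was called by limma, with 2 at an unadjusted p under 0.05.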

How the data were processed

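The deposited values are spot intensities of 1-colour Agilent arrays from Feature Extraction 11.0.1.1, background-subtracted and detrended by the authors' scanner software, per the file headers. Here log2 intensity was taken relative to each array's 75th percentile of non-control spots. Outlier spots were left out, the rest averaged by probe, and a probe was kept if all arrays of any group showed it well above background. The brightest probe stood for its gene. Of 33258 systematic names 21464 matched RefSeq (GRCm38.p6, names only). Arrays were joined where their difference was within repeated-spot noise, and MCT 330 values over 1 log2 unit from both others left out, a choice made after the values were seen. This gave 5 samples for limma 3.58.1 (R 4.3.3, lmFit and eBayes, 3 groups), with Benjamini-Hochberg adjustment over 24798 genes. The method was tested on simulated data with the same spread in every sample. That cannot show whether the 1 MCT 330 sample varies like the others. Titles number the arrays as mice, but joined arrays differed by less than spots do, so p-values measure the spread between these samples, which may be technical, and the number of arrays limits precision. Members and the 55 gene lists (1556 symbols, 1520 on the array) were chosen with earlier results of these data known, so list counts are descriptions. Genes were named by rule: the 12 highest and 12 lowest called with all arrays of the doses apart, the 5 largest bounds each way, and up to 4 per list, clone names left out. Other genes within a list were named after their values were seen. Replicate numbers did not pair the samples. Some items are not reported here. The miRNA arrays were not used.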

Additional observations from a re-analysis of the deposited data

How the results depend on the processing

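Of 5392 called genes 3476 were also called with quantile normalization (3874 in all, 2367 lower), and 2849 with normexp (4014 in all, 1968 higher and 2046 lower). With no filter on dim probes none passed (9198 had an unadjusted p under 0.05, and the adjusted p started at 0.0724). Taking arrays as separate samples raised the counts by construction, since the spread between joined arrays is that of spots: 16257 for 9 arrays (5178 higher, 11079 lower), 17923 for the 6 arrays of the doses (5927 and 11996), and 17099 with scan as a random block (5543 and 11556). With the replicate number as a block it was 16102 (5105 and 10997); same-numbered samples did not deviate together, with correlations from -0.05 to 0.06. With MCT 330 replicate 1 as a sample of its own, added after seeing the data, 11423 were called (3241 and 8182). Leaving out 1 array gave 0 to 7282 calls (0 to 1682 higher, 0 to 5600 lower), the 0 without MCT 270 replicate 1 and the highest without control replicate 1. Trended and robust eBayes gave 6671. Id3, at 1.31, turned to -1.98 with discrepant values kept, and leaving out 1 array gave -3.63 to 1.44, below 0 without MCT 330 replicate 2 or 3, where its low spot weighs in. Probes at 1 dose under background give bounds only.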
